A study of Mus musculus with 12 samples.

Results

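A set of 10 genes linked to the priming of liver regeneration was followed in cells sorted as monocytes from the spleen and the blood of mice, before and after removal of part of the liver. The set was chosen by gene symbol, with earlier results of these data known. It held 7 secreted ligands, Il6, Tnf, Osm, Lif, Il10, Il23a and Il12b, and 3 receptor subunits, Il6ra, Il6st and Il10ra, out of 52553 features in the count files, and all 10 were found there and passed the filter on low counts. Messenger RNA was sequenced from CD115+ cells, which were isolated with magnetic beads. CD115, the receptor for colony-stimulating factor 1, is encoded by Csf1r and is carried by monocytes and macrophages. The 12 libraries formed 4 groups of 3, and each library pooled the cells of 5 male C57BL/6 mice. The 2 intact groups, spleen and blood, came from mice with both the liver and the spleen in place. The 2 resected groups, spleen and blood, came from mice that kept the spleen and had 70% of the liver removed 24 h earlier, under isoflurane anesthesia and with meloxicam for pain. The study's methods name sham-operated mice with an intact liver as controls of its liver series, whereas the labels of these libraries call the mice intact and do not say whether they were operated, so that resection, surgery, anesthesia and analgesia cannot be told apart here. Spleen cells were released with collagenase and freed of red blood cells before a density gradient, whereas blood went straight to the gradient, so the tissue and its handling cannot be told apart either.

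After partial hepatectomy, macrophages release TNF and interleukin 6, and these cytokines bring resting hepatocytes into a state in which they can answer growth factors. Interleukin 6, oncostatin M and leukemia inhibitory factor signal through the shared receptor chain gp130, the product of Il6st, and activate the transcription factor STAT3. Interleukin 10 also activates STAT3, through its own receptor, and restrains the output of inflammatory cytokines by macrophages. Interleukin 12 and interleukin 23 share the subunit encoded by Il12b, and interleukin 23 adds to it the subunit encoded by Il23a.

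Total counts ran from 36990033 to 46401368 a library, so that 3 counts, taken as the floor of detection, corresponded to between 0.0626 and 0.102 CPM. This unit expresses a gene's count relative to the total of its library, here after correction of the totals by TMM factors. Csf1r, the gene of the sorted marker, was at 209 CPM or more in every library, and the 10 monocyte markers together were at 2766 to 10920 CPM. Hemoglobin genes took 13.2 to 34.2% of the counts in blood libraries and 0.0814 to 3.47% in spleen libraries. Markers of other cells were not even over the groups. The summed level of 12 neutrophil markers was 144 to 526 CPM in intact blood and 3862 to 19950 CPM in blood after resection, and it was 1333 to 2428 CPM in intact spleen and 5604 to 15160 CPM in spleen after resection. The 7 markers of peritoneal macrophages summed to 432 to 1251 CPM in intact blood and 9167 to 13640 CPM in blood after resection, but to 63.4 to 65.9 CPM in intact spleen and 60.9 to 895 CPM in spleen after resection. Hepatocyte markers were at or near 0 in all groups, with a highest sum of 1.75 CPM. Intact blood replicate 3 stood apart from the other libraries of its group by the highest summed T cell markers, 1301 against 545 and 590 CPM, and it was the lowest of its group for 8 of the 10 genes. Spleen replicate 3 after resection was the highest of its group for 8 of the 10. In such bulk samples fewer cells of a type and less RNA per cell cannot be told apart.

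Of the 7 cytokine genes 5 rose in CD115+ cells of the blood after resection, and none of the 3 receptor genes passed the test. Il6, Tnf, Osm, Il10 and Il23a were called higher, 5 of the 10 genes, where a call needs an adjusted p below 0.05 in edgeR's quasi-likelihood test and a log2 fold change beyond 1. Over all 20135 features tested, 7.80% were called higher in this comparison and 6.11% lower. Since the genes were chosen with earlier results of these data known, such shares describe the set and do not test it. None of the 10 was called lower by edgeR, none had a lower value at an unadjusted p under 0.05, and DESeq2 called the same numbers, 5 higher and 0 lower. The 3 libraries of one group did not overlap with those of the other for 8 of the 10 genes, against 38.4% of all features. The median log2 fold change was 3.23 for the 10 genes and -0.10 for all features. The libraries are pools with no record of shared animals, so p-values measure the spread between these pools.

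Il6 encodes interleukin 6, the cytokine that triggers the acute phase response of the liver. Its level in intact blood was 2.23, 2.24 and 0.524 CPM in replicates 1 to 3, and 25.5, 129 and 79.6 CPM after resection. The lowest library after resection was above the highest intact one. The log2 fold change was 5.56 with a standard error (SE) of 0.75 (adjusted p = 0.00161, edgeR quasi-likelihood test with Benjamini-Hochberg adjustment), and it was 4.96 without blood replicate 2 after resection, with the call kept. In the spleen the gene was close to the floor throughout. It had 10, 9 and 10 counts in the intact libraries and 13, 4 and 13 after resection, or 0.210, 0.188 and 0.213 CPM against 0.304, 0.0873 and 0.320 CPM. These groups overlapped (log2 fold change 0.20, SE 0.81, adjusted p = 0.928, edgeR), and the sign turned when replicate 1 or replicate 3 of the resected spleen was left out. The region before the Il6 start site is shown because the gene's level in blood after resection was the farthest from its level in spleen of all 10 genes. It spans chr5:30012864-30013113 on the plus strand of GRCm38.p6 (RefSeq), 250 bases that end at the base before the start site. Capitals mark matches to the NF-kB consensus, 44 bases before the start, and to the AP-1 motif TGANTCA, 249 bases before it, each searched on both strands, with no overlap between them.
Il6: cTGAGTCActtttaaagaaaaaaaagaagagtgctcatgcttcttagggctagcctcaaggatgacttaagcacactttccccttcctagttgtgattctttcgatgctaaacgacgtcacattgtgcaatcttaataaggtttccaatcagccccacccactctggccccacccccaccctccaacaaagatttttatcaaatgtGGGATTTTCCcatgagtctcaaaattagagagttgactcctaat

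Tnf encodes tumor necrosis factor, which activates NF-kB in its target cells and stands at the head of the priming response. It was at 11.4, 14.98 and 9.26 CPM in intact blood and at 621, 1198 and 728 CPM after resection, with a gap of more than an order of magnitude between the groups. Its log2 fold change was 6.16 (SE 0.73, adjusted p = 0.00111, edgeR). In the spleen the levels were 9.83, 12.2 and 18.5 CPM before and 80.6, 39.7 and 266 CPM after resection. These groups did not overlap either, although the libraries after resection were spread widely. Tnf was the only one of the 10 genes called in the spleen, at a log2 fold change of 3.25 (SE 0.64, adjusted p = 0.0397, edgeR). The value was 2.16 without replicate 3 of the resected spleen (adjusted p = 0.0806), and the call was lost in 13 of 21 alternative settings, 10 of them with a single library left out. These were each of the intact spleen libraries, replicates 1 and 3 of the resected spleen, the 3 blood libraries after resection, and intact blood replicates 1 and 2, with log2 fold changes between 2.16 and 3.54. Over all features, the 277 calls in spleen likewise became 1 to 1025 without single libraries, and 101 without a low-count filter. The neighbors of Tnf on the chromosome are Lta and Ltb, which encode the lymphotoxins, and neither passed the test in blood (log2 fold changes -0.01 and -0.71, adjusted p = 0.995 and 0.341, edgeR). The 250 bases before the Tnf start site are given as the counterpart of the Il6 region, from chr17:35202008-35202257 on the minus strand (GRCm38.p6, RefSeq), and they held no match to any of the 4 motifs searched.
Tnf: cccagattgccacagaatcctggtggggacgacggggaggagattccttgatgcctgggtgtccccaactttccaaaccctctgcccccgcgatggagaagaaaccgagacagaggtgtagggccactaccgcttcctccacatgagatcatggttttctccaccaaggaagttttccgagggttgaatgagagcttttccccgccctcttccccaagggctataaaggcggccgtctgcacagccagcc

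The motifs searched were those of NF-kB, AP-1 (TGANTCA), STAT (TTCNNNGAA) and the cyclic AMP response element (TGACGTCA). A match on either strand was present in 7.25%, 6.75%, 7.02% and 1.55% of 32851 RefSeq windows of the same length, respectively. Of the 10 genes, 6 had an entry, namely Il6, Tnf, Lif, Il12b, Il6ra and Il6st, and Osm, Il10, Il23a and Il10ra had none. Il6 and Lif held both an NF-kB and an AP-1 match, at 178 and 228 bases before the start in Lif, and no STAT or cyclic AMP response element match was found among the 6. A match describes the letters in this window and is not a site of binding.

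**Figure D1:**
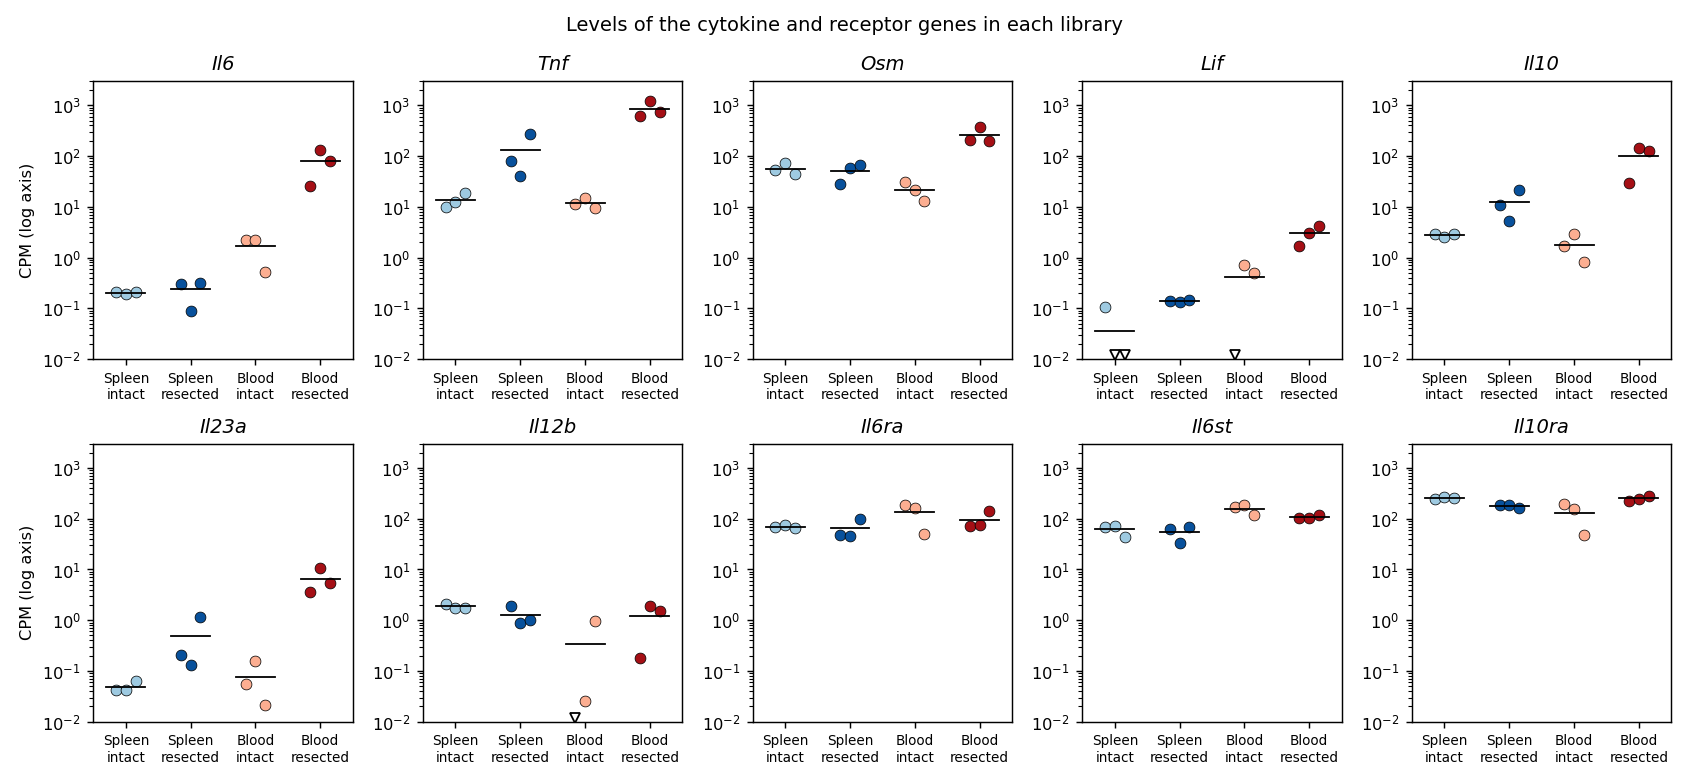
Level of each of the 10 genes in every library, as CPM on a log axis, by group. Points are libraries, lines are group means, and open triangles at the bottom are libraries with 0 counts. Il6 lies between 25.5 and 129 CPM in blood after resection and at or below 2.24 CPM in all other libraries, whereas the receptors Il6ra, Il6st and Il10ra stay between 33.8 and 283 CPM.

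Osm encodes oncostatin M, a gp130 ligand made by monocytes, macrophages and neutrophils. Intact blood held 30.3, 21.1 and 13.2 CPM, and blood after resection held 207, 371 and 199 CPM. The groups were well apart (log2 fold change 3.59, SE 0.44, adjusted p = 0.00124, edgeR). In the spleen the gene was already at 51.9, 73.3 and 43.9 CPM in intact mice and was at 28.1, 59.3 and 65.1 CPM after resection. Here the libraries overlapped, at a log2 fold change of -0.15 (SE 0.40, adjusted p = 0.878, edgeR) that turned positive without intact spleen replicate 2 or without resected spleen replicate 1. Lif, which lies next to Osm on chromosome 11 and encodes leukemia inhibitory factor, was far lower. Its estimated counts gave 0, 0.719 and 0.502 CPM in intact blood and 1.68, 3.09 and 4.25 CPM after resection. The blood groups did not overlap, but the difference missed the threshold (log2 fold change 2.87, SE 1.33, adjusted p = 0.150, edgeR). In the spleen Lif had 0 counts in 2 of the 3 intact libraries and 6 counts, after rounding, in each library after resection (log2 fold change 1.90, adjusted p = 0.491, edgeR).

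Il10 encodes interleukin 10, the main anti-inflammatory cytokine of macrophages. In intact blood it was at 1.68, 2.88 and 0.830 CPM, and after resection at 29.0, 144 and 123 CPM. As for Il6, replicate 1 was the lowest of the resected blood libraries and still lay above the highest intact one. The log2 fold change was 5.78 (SE 0.79, adjusted p = 0.00170, edgeR). In the spleen Il10 went from 2.93, 2.53 and 2.87 CPM to 10.7, 5.15 and 21.7 CPM. Every resected library exceeded every intact one, but the difference was not called (log2 fold change 2.17, SE 0.67, adjusted p = 0.112, edgeR), and DESeq2 did call it (adjusted p = 0.0127).

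Il23a encodes the p19 subunit of interleukin 23, a cytokine that sustains interleukin 17 producing lymphocytes. It was nearly absent from the intact libraries, with 2, 6 and 1 counts in blood and 2, 2 and 3 counts in spleen. Blood after resection held 3.57, 10.9 and 5.46 CPM against 0.055, 0.154 and 0.0218 CPM before. This was a log2 fold change of 6.39 (SE 1.06, adjusted p = 0.00361, edgeR), and of 7.38 without intact blood replicate 2. In the spleen after resection it was at 0.210, 0.131 and 1.16 CPM, and replicate 3 accounted for most of the mean. The intact spleen libraries were all at or under the floor of 3 counts, and the mean floor of that group was 0.0632 CPM. The mean after resection, 0.499 CPM, was 7.89-fold this floor. This ratio is a lower bound of the fold if 3 counts are taken as the ceiling of the intact group. It does not cover the spread between libraries. Without resected spleen replicate 3 the bound was 2.7-fold and the log2 fold change was 1.73 (adjusted p = 0.328, edgeR) in place of 3.26. The difference was not called by edgeR (adjusted p = 0.0993) and was called by DESeq2 (adjusted p = 0.0157). The partner subunit Il12b was not called in blood, and its result there hung on 1 intact library. It stood at 0, 0.0257 and 0.983 CPM in intact blood and at 0.183, 1.87 and 1.52 CPM after resection, with overlap, and intact blood replicate 3 held 45 counts against 0 and 1 in the others. The log2 fold change of 1.80 was not called (SE 1.34, adjusted p = 0.367, edgeR), and it was 6.21 and called without that library (adjusted p = 0.0105). Intact spleen held more of it, 2.08, 1.77 and 1.75 CPM, with 1.87, 0.895 and 1.01 CPM after resection (log2 fold change -0.57, adjusted p = 0.850, edgeR).

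**Figure D2:**
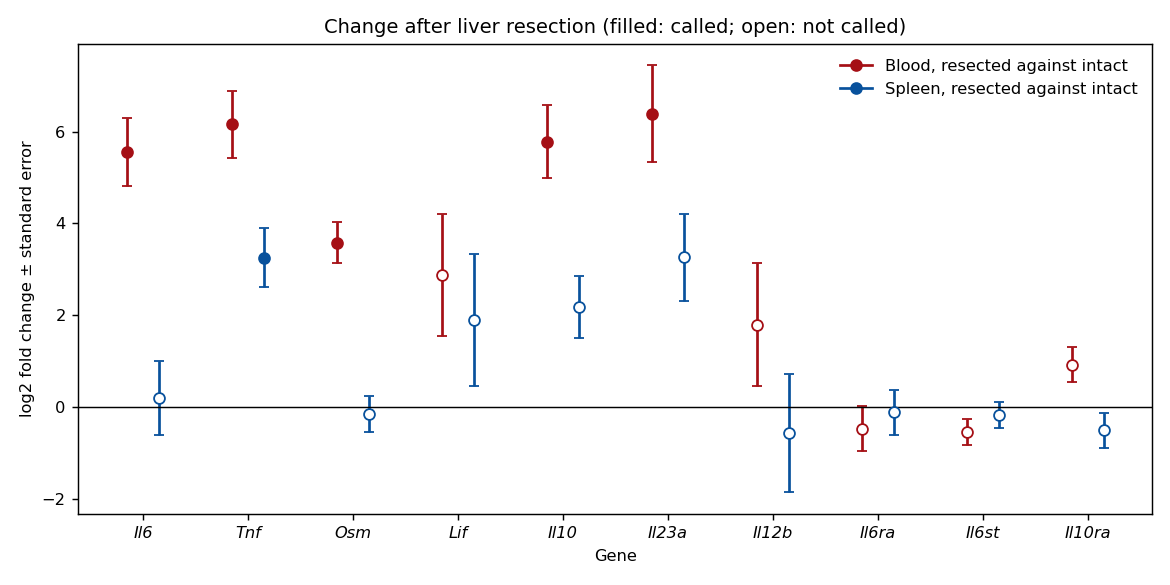
Log2 fold change after resection with its standard error for the 10 genes, in blood and in spleen. Filled points passed the test and the fold limit, open points did not. The 5 called cytokines in blood lie between 3.59 and 6.39, and Tnf at 3.25 is the only called gene in the spleen.

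The receptor genes moved little by comparison. Il6ra encodes the interleukin 6 binding chain, which confers on a cell the response to the soluble cytokine. It was at 186, 163 and 49.4 CPM in intact blood and at 70.4, 73.8 and 145 CPM after resection, with overlapping libraries (log2 fold change -0.46, SE 0.49, adjusted p = 0.536, edgeR). In the spleen it was at 69.0, 73.9 and 65.0 CPM before and 47.7, 44.9 and 100 CPM after resection (log2 fold change -0.11, adjusted p = 0.936, edgeR), and the sign turned without resected spleen replicate 1 or 2. Il6st, the gp130 chain, was at 170, 187 and 118 CPM in intact blood and at 105, 105 and 118 CPM after resection. These groups were separate by a narrow margin, and the value missed the threshold (log2 fold change -0.53, SE 0.28, adjusted p = 0.207, edgeR). In the spleen it was at 69.4, 71.6 and 44.6 CPM before and 62.9, 33.8 and 68.9 CPM after (log2 fold change -0.16, adjusted p = 0.795, edgeR), and this sign turned without resected spleen replicate 2.

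Il10ra encodes the ligand-binding chain of the interleukin 10 receptor. Its level in blood was 192, 156 and 48.2 CPM before and 226, 245 and 283 CPM after resection, and in spleen 243, 265 and 254 CPM before and 190, 187 and 159 CPM after. The libraries did not overlap in either tissue, and the shifts ran in opposite directions, but neither passed the test (log2 fold changes 0.93 and -0.51, SE 0.38 and 0.38, adjusted p = 0.112 and 0.489, edgeR). The gene was counted in 2 entries, its coding transcripts and the non-coding transcript NR_136903, whose estimated counts were summed here. The non-coding entry took 20.02, 17.9 and 23.0% of the gene's counts in intact spleen and 32.5, 26.8 and 43.6% in spleen after resection. In blood it took 36.4, 36.3 and 44.7% before and 47.7, 47.6 and 43.0% after. Every intact spleen library was below every other library. By an exact two-sided permutation test, for which 0.1 is the smallest p that 3 against 3 libraries allow, p was 0.1 for resection in spleen (14.0 percentage points higher), 0.2 for resection in blood (6.94 points higher), 0.1 for intact blood against intact spleen (18.9 points higher) and 0.2 for the tissues after resection (11.8 points higher), and all 4 were 0.2 after Benjamini-Hochberg adjustment. Fitted on its own, the non-coding entry was called higher in blood after resection (log2 fold change 1.22, SE 0.36, adjusted p = 0.0409, edgeR), and the coding entry was not (0.71, SE 0.45, adjusted p = 0.300). Since reads were split between the entries their counts are estimates.

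**Figure D3:**
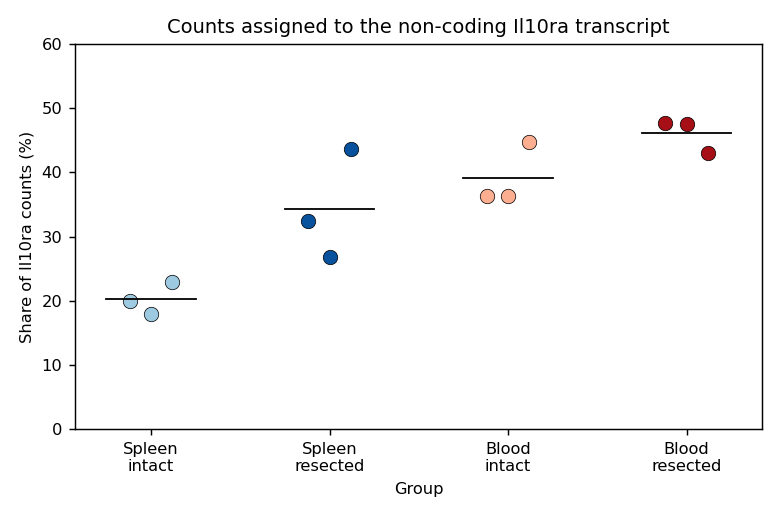
Share of Il10ra counts assigned to the non-coding transcript, in percent, by group. Points are libraries and lines are group means. The 3 intact spleen libraries lie between 17.9 and 23.0%, and the 9 others between 26.8 and 47.7%.

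In the spleen, 1 of the 10 genes was called higher after resection, and none was called lower by edgeR, by DESeq2, or at an unadjusted p under 0.05. The shares of all features were 0.780% called higher and 0.596% called lower. The libraries did not overlap for 5 of the 10 genes, against 35.1% of all features, and the median log2 fold change was 0.05 for the 10 genes and 0.05 for all features. DESeq2 called 3 of the 10 genes higher, Tnf, Il10 and Il23a. Over all features, in either direction, DESeq2 called 1564 and edgeR 277.

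The effects of resection in blood and in spleen were compared in the same fit by their difference. Osm was the only gene of the 10 that passed: its log2 fold change was 3.73 higher in blood than in spleen (SE 0.59, adjusted p = 0.0433, edgeR). Of all features 0.219% had an effect called higher in blood and 0.0646% one called lower. The differences were 5.35 for Il6 (SE 1.07, adjusted p = 0.0752), 3.61 for Il10 (0.95, adjusted p = 0.144), 3.13 for Il23a (1.34, adjusted p = 0.272) and 2.90 for Tnf (0.85, adjusted p = 0.166), all in the edgeR fit and all short of the threshold. DESeq2 called 4 of the 10, Osm, Il6, Il10 and Tnf. Over all features, in either direction, DESeq2 called 1163 and edgeR 57, and the 57 became 5 to 93 when a single library was left out. The Osm call rested on the full set of libraries. It was lost in 12 of 20 alternative settings, among them the removal of any single library other than resected spleen replicate 3 and intact blood replicate 1, with differences between 3.39 and 3.92. Without resected spleen replicate 3 the difference of Tnf was 4.003 and was called (adjusted p = 0.0368).

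In intact mice, Il6 and Il6st were higher in blood than in spleen. Il6 stood at 0.524 to 2.24 CPM in blood and 0.188 to 0.213 CPM in spleen (log2 fold change 3.00, SE 0.75, adjusted p = 0.0352, edgeR), and Il6st at 118 to 187 CPM and 44.6 to 71.6 CPM (1.36, SE 0.29, adjusted p = 0.0199, edgeR). These 2 calls compare with 3.86% of all features called higher in intact blood and 3.49% called lower. None of the 10 was called lower by edgeR; Osm and Il10ra were lower at an unadjusted p under 0.05, and DESeq2 called Osm lower (adjusted p = 0.0170). Osm was 13.2 to 30.3 CPM in blood and 43.9 to 73.3 CPM in spleen, without overlap (log2 fold change -1.39, SE 0.41, adjusted p = 0.0626, edgeR). Tnf (log2 fold change -0.18, of the opposite sign without intact spleen replicate 3 or intact blood replicate 3), Il10 (-0.63), Il23a (0.60), Il6ra (0.94) and Lif (3.43) overlapped between the tissues and were not called. The libraries of 5 of the 10 genes did not overlap, against 34.5% of all features, and the median log2 fold change was 0.21 for the 10 genes and -0.02 for all features. The Il6 call was lost in 8 of 20 settings, 6 of them with a single library left out: each intact spleen library, intact blood replicate 1 or 2, or resected blood replicate 3, with log2 fold changes of 2.80 to 3.13. That of Il6st was lost without intact spleen replicate 1 (1.54, adjusted p = 0.0548) or 3 (1.26, adjusted p = 0.0567), or without intact blood replicate 1 (1.35, adjusted p = 0.0563). Il12b did not overlap between the tissues and was not called (log2 fold change -2.45, SE 1.36, adjusted p = 0.297, edgeR). Without intact blood replicate 3, which left libraries of 0 and 1 counts in intact blood, Il12b was called lower there, at -6.76 (adjusted p = 0.0143, edgeR).

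After resection, the same 5 cytokines that were called in blood against intact blood were called higher in blood than in spleen, a comparison that shares the resected blood libraries with it. Il6 showed the widest gap. All of its spleen libraries were at or below 0.320 CPM and all of its blood libraries at or above 25.5 CPM, a log2 fold change of 8.36 (SE 0.87, adjusted p = 0.000571, edgeR), which ranked 77th of the 20135 features. The values were 2.72 for Tnf (SE 0.62, adjusted p = 0.0154), 2.35 for Osm (0.42, adjusted p = 0.00558), 2.98 for Il10 (0.69, adjusted p = 0.0159) and 3.73 for Il23a (0.91, adjusted p = 0.0200), all by edgeR. The background was 6.28% of features called higher in blood and 6.87% called lower. None of the 10 was called lower by edgeR or DESeq2 or had a lower value at an unadjusted p under 0.05. The libraries did not overlap for 8 of the 10 genes, against 42.4% of all features, and the median log2 fold change was 2.53 for the 10 genes and -0.14 for all features. Il6st missed only the fold limit (log2 fold change 0.99, SE 0.29, adjusted p = 0.0375, edgeR), and it passed in most of the alternative settings, among them RLE size factors (1.10) and the fit without hemoglobin genes (1.10). Lif was 4.40 higher (SE 1.44, adjusted p = 0.0579, edgeR) and was not called, whereas DESeq2 called it (4.55, adjusted p = 0.00314), as did edgeR with only these groups in the fit (4.46, adjusted p = 0.00641) and without intact blood replicate 1 (adjusted p = 0.0250) or 3 (adjusted p = 0.0499). The fold change of Il12b was -0.08 and turned positive under RLE size factors and without hemoglobin genes. Single libraries mattered for 3 of the calls. Without resected spleen replicate 1 those of Tnf (2.57, adjusted p = 0.0572), Il10 (2.98, adjusted p = 0.0590) and Il23a (3.47, adjusted p = 0.0698) were lost, so that 2 genes were called. Those of Il10 and Il23a were also lost without resected spleen replicate 2 (2.71 and 3.38) and without resected blood replicate 2 (2.69 and 3.27). Without resected spleen replicate 3 the values of Tnf, Il10 and Il23a rose to 3.92, 3.74 and 5.36.

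Levels were ranked between genes after division by the length of the exons. On this scale, CPM per kilobase, Il10ra led in intact spleen (72.5 ± 3.14, SD, n = 3). Places follow the group means, and libraries of genes in nearby places can overlap. In intact blood Il10ra had the highest mean (37.8 ± 21.4). Its libraries there (13.8 to 55) overlapped with those of Il6ra (5.72 to 21.55) and Il6st (10.8 to 17.0). The mean of Tnf ranked behind 4 others in intact blood (7.26 ± 1.76). Its libraries (5.65 to 9.14) overlapped with those of Osm (5.82 to 13.35) and Il6ra. After resection Tnf led in blood (518 ± 187), followed by Osm (114 ± 42.7) and Il10 (75.4 ± 46.8). The libraries of Osm lay above those of Il10ra (71.8 ± 8.27), and those of Il10 overlapped with both. In spleen after resection Tnf (78.6 ± 73.7) and Il10ra (51.1 ± 4.86) overlapped, so their order was not resolved. Il6 held place 8 in intact spleen (0.0839 ± 0.00568), place 9 in spleen after resection (0.0975 ± 0.0534), place 7 in intact blood (0.685 ± 0.406) and place 5 in blood after resection (32.1 ± 21.3). Lif, Il23a and Il12b filled 3 of the 4 lowest places in both spleen groups and the 3 lowest in both blood groups.

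Ratios of counts within a library do not depend on the scaling to library size, and they were not corrected for exon length. The log2 ratio of Il6 to Il10 lay between -3.80 and -3.75 in intact spleen and between -6.09 and -5.14 in spleen after resection. In blood it lay between -0.66 and 0.41 before and between -0.63 and -0.16 after resection, so that the range after resection fell within the range before it. Osm exceeded Tnf in counts in every intact library, with log2 ratios of 1.25 to 2.58 in spleen and 0.50 to 1.41 in blood. The exons of Osm are also longer, at 2272 bases against 1639 for Tnf. After resection Tnf exceeded Osm in every blood library, with ratios between -1.87 and -1.59, whereas in spleen the ratio ran from -2.03 to 0.58 and crossed zero.

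Over the 12 libraries the profiles most like each gene were sought among 12749 genes with a mean of at least 1 CPM, by Pearson's r of log2 CPM, as a description that the group differences dominate. For Tnf these were Cxcl3 (r = 0.988), Il1a (0.984) and Nfkbia (0.982), which encode a neutrophil-attracting chemokine, interleukin 1 alpha and the inhibitor of NF-kB. The genes nearest to Il10 were Nfkbiz (0.985), Ehd1 (0.985) and Nfkbib (0.983), of which Nfkbiz and Nfkbib belong to the same gene family as Nfkbia. Il23a was closest to Sgk1 (0.980) and had Tnf (0.978) in the second place. Il6 and Osm had other nearest genes, Mef2a (0.979), Ttc7b (0.977) and Mfsd5 (0.976) for Il6, and Map2k3os (0.977), Ctsa (0.967) and Aopep (0.959) for Osm. The receptors were nearest to Pcgf5 (0.948), Stk38 (0.924) and Ipcef1 (0.922) for Il6ra, to Klhl3 (0.966), Zfp51 (0.959) and Siah1a (0.952) for Il6st, and to Gm32342 (0.960), Tgfb1 (0.951) and Retreg1 (0.950) for Il10ra. Il12b had the weakest matches, Srp54b (0.906), Six5 (0.884) and Marcks (0.872). Lif was below 1 CPM on average and was not searched.

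The pathways around these cytokines were described by 9 lists of genes, also chosen with earlier results of these data known. Their counts are likewise a description and no test of the lists. Among 14 genes known to respond to STAT3, all tested, 5 passed the test upward after resection in blood, against 7.80% of all features, their median log2 fold change was 1.01 against -0.10, and 0 were lower by edgeR, by DESeq2 or at an unadjusted p under 0.05. Socs3, the feedback inhibitor of gp130 signaling, went from 185, 284 and 178 CPM to 759, 1543 and 1648 CPM, without overlap (log2 fold change 2.61, SE 0.43, adjusted p = 0.00341, edgeR). In spleen Socs3 stayed between 104 and 288 CPM in all 6 libraries (0.26, adjusted p = 0.768, edgeR). Il1rn, which encodes the interleukin 1 receptor antagonist, rose by 5.53 in blood (SE 1.08, adjusted p = 0.00703), Bcl3 by 2.07 (0.44, adjusted p = 0.0104) and Sbno2 by 1.84 (0.38, adjusted p = 0.00920), all on the log2 scale in the edgeR fit. Not one of the 14 was called in spleen after resection by edgeR or DESeq2, and 2 were higher at an unadjusted p under 0.05. Of 13 JAK-STAT transducers and feedback regulators, edgeR called 2 higher in blood, Socs3 and Gab1, and 1 lower. The shares of all features were 7.80% and 6.11%. In spleen 0 of the 13 were called higher and 1 lower, against 0.780% and 0.596%. Names of genes called lower in this list are not reported here. Gab1, an adaptor of gp130 signaling, had a log2 fold change of 2.44 in blood (0.55, adjusted p = 0.0136), and it was not called without resected blood replicate 3 (2.03, adjusted p = 0.0515).

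Of 18 genes of TNF receptors, signaling and processing, 4 were called higher in blood (7.80% of all features) and 0 lower (6.11%) by edgeR, 1 was lower at an unadjusted p under 0.05, and DESeq2 called 6 higher and 0 lower. Nfkbia, a direct target of NF-kB, rose by 2.74 in blood (SE 0.33, adjusted p = 0.00112) and by 2.00 in spleen (0.32, adjusted p = 0.0253), on the log2 scale by edgeR. It was the only gene of the list called in spleen, where 0.780% of all features were called higher and where the call was lost without intact spleen replicate 1 (1.89) or 2 (1.97), resected spleen replicate 3 (1.62) or resected blood replicate 2 (1.99). Adam17 and Rhbdf2, which encode the protease that sheds TNF and interleukin 6 receptor from the cell surface and a partner it needs for its maturation, had log2 fold changes in blood of 1.26 (0.26, adjusted p = 0.00898) and 1.79 (0.39, adjusted p = 0.0119). Tnfrsf1a, the main TNF receptor, had 1.34 (0.34, adjusted p = 0.0215). All of these 3 calls were lost without resected blood replicate 3 (0.99, 1.49 and 1.22), and that of Tnfrsf1a also without resected blood replicate 2 (1.35).

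Innate receptors and complement genes that trigger cytokine induction were called higher in blood in 7 of 11 cases, against 7.80% of all features, the list's median log2 fold change was 1.82, and 0 of the 11 were lower by edgeR, by DESeq2 or at an unadjusted p under 0.05. Tlr2, which recognizes bacterial lipoproteins, had a log2 fold change of 2.75 (SE 0.37, adjusted p = 0.00168), and C5ar1, the receptor of the complement fragment C5a, one of 3.89 (0.54, adjusted p = 0.00178). Ly96 and Tlr4, the parts of the lipopolysaccharide receptor, had 2.00 (0.29, adjusted p = 0.00196) and 1.27 (0.20, adjusted p = 0.00299), all by edgeR. None of the 11 was called in spleen by edgeR, although C5ar1 went from 53.2, 62.7 and 41.1 CPM to 97.1, 76.5 and 284 CPM there (1.54, adjusted p = 0.116, edgeR); 2 of the list were higher at an unadjusted p under 0.05 and DESeq2 called 1.

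The remaining 5 lists gave 1 or 2 calls each in blood, to be read against 7.80% of all features called higher and 6.11% called lower. Of the other gp130 ligands Il11 and Ctf1 were not tested, and 1 of the 5 others was called higher. This was Ebi3, a subunit of interleukins 27 and 35 (2.26, SE 0.69, adjusted p = 0.0433, edgeR), whose value was 1.04 without resected blood replicate 3 and whose call was lost without any single library other than resected blood replicate 1. Of the other gp130 receptors Osmr and Cntfr were not tested, and 1 of 4, Il11ra1, the interleukin 11 receptor, was higher (1.37, SE 0.21, adjusted p = 0.00249, edgeR). Il19, Il20 and Il22ra1 of the interleukin 10 family were not tested, and of the 5 others Il10rb, the second chain of the interleukin 10 receptor, was higher (1.42, SE 0.29, adjusted p = 0.00847, edgeR). Of the interleukin 12 and 23 axis, Il23r and Il17a were not tested, and 1 of 6 genes was called, Il12rb2, an interleukin 12 receptor chain, which fell by 2.05 on the log2 scale (SE 0.38, adjusted p = 0.00528, edgeR). Of 8 factors of cytokine mRNA decay, Zfp36 and Zc3h12a, which encode tristetraprolin and regnase-1, were called higher (1.82 and 1.55, SE 0.46 and 0.47, adjusted p = 0.0213 and 0.0408, edgeR). The Zfp36 call was lost without resected blood replicate 2 (1.49) or intact blood replicate 1 (1.89), and that of Zc3h12a without any of 9 single libraries, with values between 1.30 and 1.81. None of the 28 tested genes of these 5 lists was called in spleen by edgeR. At an unadjusted p under 0.05, 5 of them were higher and 6 lower, and DESeq2 called 2 higher and 3 lower. Of the 23 list genes reported as called in blood, 12 kept the call in every alternative setting.

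**Figure D4:**
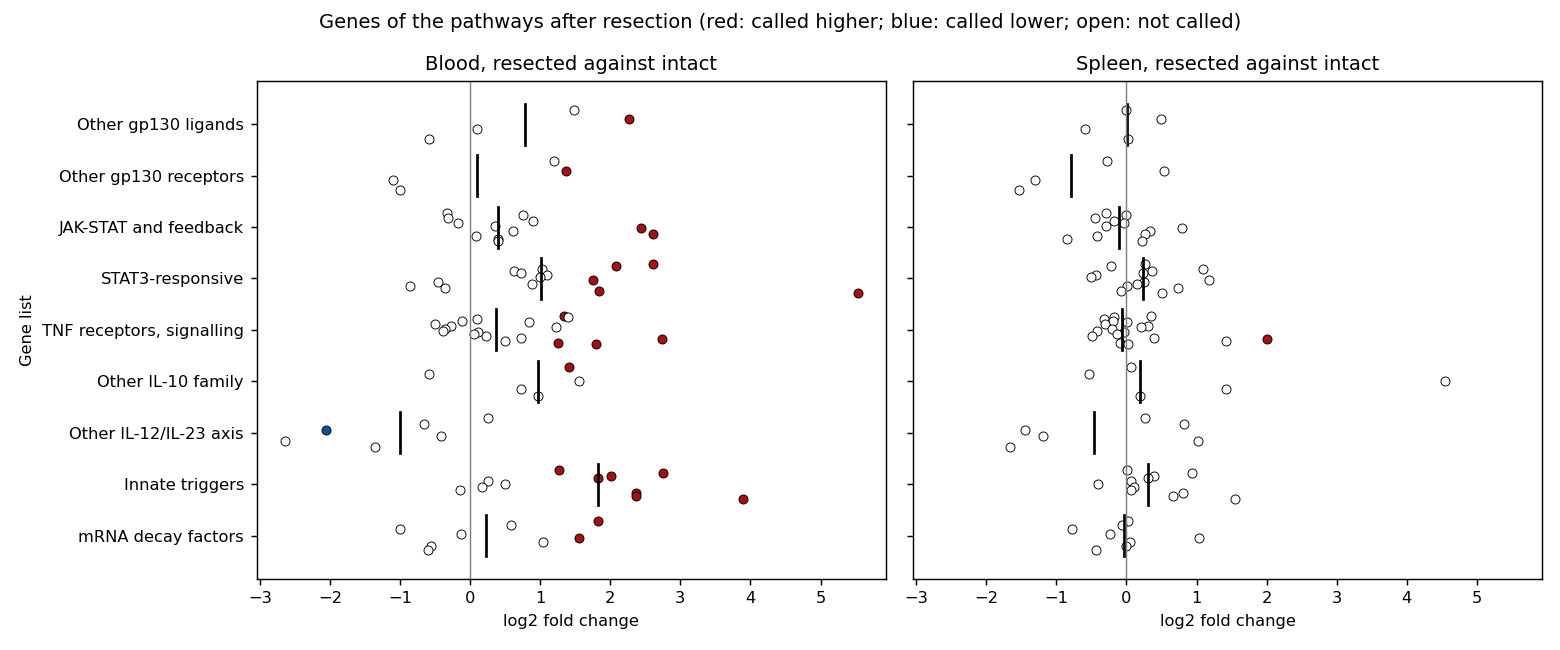
Log2 fold change after resection of the genes reported from the 9 pathway lists, in blood (left) and spleen (right). Each point is a gene, red when called higher, blue when called lower and open when not called, and vertical bars are list medians. In blood 7 of 11 innate triggers and 5 of 14 STAT3-responsive genes are red, and in spleen Nfkbia is red.

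Between the tissues, the genes of these lists differed as follows. After resection Socs3 and Socs1, both feedback inhibitors of JAK kinases, were higher in blood than in spleen by 2.79 (SE 0.43, adjusted p = 0.00278) and 1.36 (0.25, adjusted p = 0.00580), and Tlr2 by 1.90 (0.36, adjusted p = 0.00702), on the log2 scale by edgeR. C3ar1, the receptor of the complement fragment C3a, was higher in blood both in intact mice (4.01, SE 0.59, adjusted p = 0.00448) and after resection (5.71, 0.63, adjusted p = 0.000753). Il20rb was likewise higher in both states (2.62 and 1.93, adjusted p = 0.00433 and 0.00732), and the immediate early gene Fos was lower in both (-3.02 and -3.73, adjusted p = 0.0103 and 0.00245). Arid5a, which encodes a factor that stabilizes Il6 mRNA, was higher in blood after resection (1.67, SE 0.35, adjusted p = 0.0107). These calls were kept in every alternative setting. Of all features, 3.86% were called higher and 3.49% lower in blood in intact mice, and 6.28% and 6.87% after resection. By list, calls after resection in either direction ran from 1 of 18 genes tested (TNF list) to 2 of 5 (interleukin 10 family). In intact mice they ran from 0, as for the interleukin 12 and 23 axis, to 3 of 5 (interleukin 10 family). Such counts describe the lists and do not test them. In all, 13 list genes were called between the tissues in intact mice, of which 3 kept the call throughout. After resection 14 reported here were called, of which 7 did. The others in intact mice were Socs1 (1.09) and Tnfaip3 (1.67), higher in blood, and Zfp36 (-2.07), Zfp36l1 (-1.86), Cebpd (-1.81), Bcl6 (-1.76), Ptpn6 (-1.69), Maf (-1.14), Il10rb (-1.09) and Tlr4 (-1.03), lower in blood, and all 10 lost the call without intact spleen replicate 1, at 1.05 to 1.60 and -2.10 to -1.002. After resection they were Lifr (2.98), Gab1 (1.79) and Nfkbia (1.19), higher, and Il22 (-4.74), Myc (-2.20), Il12rb1 (-1.80) and Zfp36l1 (-1.22), lower, and all 7 lost the call without resected spleen replicate 1, at 1.21 to 2.79 and -5.00 to -0.996.

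Markers of other cell types, in lists also chosen with earlier results of these data known, moved with the cytokines in blood. In blood all 12 neutrophil markers and all 7 peritoneal macrophage markers passed the test upward after resection, as did 4 of 6 red pulp macrophage and 3 of 5 plasma cell markers, against 7.80% of all features. Of the red pulp macrophage markers 1 was lower at an unadjusted p under 0.05, and DESeq2 called 4 higher and 1 lower. The neutrophil, peritoneal macrophage and plasma cell lists had 0 lower by either measure. Of 6 T cell markers 4 were called lower, against 6.11%, and of 10 monocyte markers 2 were called higher and 2 lower. Without resected blood replicate 3 the neutrophil count was 7, that of red pulp macrophages 2 and that of T cells 2. Without resected blood replicate 2 the peritoneal macrophage count was 3, without intact blood replicate 2 it was 4, and without intact blood replicate 1 that of red pulp macrophages was 2. In spleen 2 of 12 neutrophil markers and none of the 7 peritoneal macrophage markers were called higher by edgeR. At an unadjusted p under 0.05, 9 and 3 were higher and 0 and 1 lower, while DESeq2 called 9 and 2 higher. The peritoneal macrophage markers were mixed there, with a positive log2 fold change for 4 of the 7 and a median of 0.15. Of 6 erythroid markers 0 were called in spleen by edgeR, all 6 were higher there at an unadjusted p under 0.05, and DESeq2 called 6. The 2 neutrophil calls in spleen became between 0 and 4 when a library was left out. Within the resected blood group the sum of peritoneal macrophage markers ranged from 9167 to 13640 CPM. In the same libraries the sum of neutrophil markers ranged from 3862 to 19950 CPM, and Il6 from 25.5 to 129 CPM. The part of these cells in the levels of the 10 genes was not tested.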

How the data were processed

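Strand-specific mRNA libraries of CD115+ cells were made for the DNBSEQ platform per the labels, whereas the study's methods name an Illumina instrument. The authors deposited estimated counts per transcript or gene entry for each library, without normalization. Per the labels, the submitters' processing notes name STAR and GRCm39. The counting tool and annotation are not given in the sources used here. Each file held 67088 entries, among them 40274 accessions, of which 25340 were matched to a symbol through a RefSeq table of GRCm38.p6, used for names only, and 2558 unassigned entries (1.75 to 4.33% of counts), which were left out. Entries of the same gene were added up, leaving 52553 features, and estimated counts were rounded to whole numbers. Where a gene is called by a symbol, near-identical or overlapping copies may share its reads.

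Features were filtered with filterByExpr, which kept 20135, scaled by TMM and fitted with edgeR 4.0.16 (R 4.3.3; robust quasi-likelihood, all 12 libraries, 4 groups). Calls needed an adjusted p below 0.05 (Benjamini-Hochberg over all 20135) and an absolute log2 fold change above 1, and standard errors were taken as the fold change divided by the root of F. No libraries of a group agreed within sampling noise (chi-square per degree of freedom at least 18.1). Alternatives were DESeq2 1.42.0, RLE size factors, no hemoglobin genes, 2 other count filters, no fold limit, entries as deposited, a replicate block, a fit of the compared groups alone, and the removal of each library in turn. Reads carried no molecular identifiers, so floors cover counting error only. Exon lengths came from GENCODE vM21. The 10 genes, the pathway lists and the marker lists were chosen with earlier results of these data known, and from each pathway list the called genes with the smallest p, at most 4, were named. Some genes of the lists are not reported here.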

Additional observations from a re-analysis of the deposited data

Results flagged for a closer look

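The effect of resection on Osm differed between blood and spleen by a test of the difference itself. Osm rose in blood from 13.2 to 30.3 CPM in intact mice to 199 to 371 CPM after resection, whereas in spleen it was at 43.9 to 73.3 CPM before and 28.1 to 65.1 CPM after. The difference of the log2 fold changes was 3.73 (adjusted p = 0.0433, edgeR's quasi-likelihood test). It kept its direction in all 20 alternative settings and lost the call in 12 of them.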

How the results depend on the processing

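The calls of Il6, Tnf, Osm, Il10 and Il23a in blood after resection were kept in every alternative in which the gene was tested. The filter of at least 10 counts in every library left out Il6 and Il23a, so that 3 genes were called, and leaving out single libraries gave 5 to 6. In spleen the count of 1 became 3 with DESeq2 and 0 without a low-count filter or with only the groups compared, and 0 to 1 without single libraries. In intact blood against spleen the count of 2 became 1 with at least 10 counts in every library or only the groups compared, and 0 to 3 without single libraries. After resection the count of 5 became 7 with DESeq2 or only the groups compared, 4 with at least 10 counts in every library, and 2 to 7 without single libraries. For the difference of effects, 1 became 4 with DESeq2, 0 without a low-count filter, and 0 to 2 without single libraries. The calls over all features moved as well. In spleen 277 became 1564 with DESeq2, 101 without a low-count filter, and 1 to 1025 without single libraries. In intact blood against spleen 1480 became 2568 with DESeq2 and 531 to 1494 without single libraries. Without single libraries, 2801 in blood became 1627 to 2814, and 2648 between the tissues after resection became 1450 to 3625. For the difference 57 became 1163 with DESeq2 and 5 to 93 without single libraries. The cause of these changes was not tested. Signs turned only for values that were not called. For blood against spleen after resection Il12b was 0.038 with DESeq2, 0.037 with RLE size factors, 0.041 without hemoglobin genes and 0.026 with entries as deposited, and -0.48 to 0.53 without single libraries. Without single libraries the spleen values ran from -0.070 to 0.61 for Il6, -0.58 to 0.094 for Il6ra, -0.36 to 0.090 for Il6st and -0.37 to 0.14 for Osm. Those of intact blood against spleen ran from -0.30 to 1.15 for Il23a and -0.32 to 0.20 for Tnf, and the differences of effects from -0.76 to 0.11 for Il6ra and -2.60 to 1.74 for Lif.

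Replicate numbers are shared between the groups, and no source says whether a number marks shared mice. The data were not taken as paired, since over 18 pairs of same-numbered libraries the deviations correlated between -0.05 and 0.19, 2 of them above 0.1. As a hint in the other direction, 8 of 12 libraries correlated best with their own number. With the replicate block 0 genes were called in spleen, 1 in intact blood against spleen and 0 for the difference. Of all features, 1 was called for the difference in that fit, against 57 without the block.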
